A study of Mus musculus with 18 samples.

Results

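The genes described here are 10 neutrophil granule genes, *S100a8*, *S100a9*, *Mpo*, *Elane*, *Ngp*, *Camp*, *Ltf*, *Mmp8*, *Mmp9* and *Retnlg*, taken from the 55573 gene IDs of a count table by their symbols. They were measured by RNA-sequencing in 18 samples of spinal dorsal horn tissue (DHSC) from adult C57BL/6J mice, taken on the side of a hind paw that had received 2% formalin 2 h earlier. There were 6 samples in each of 3 groups, the males, the F1/proestrus females and the F2/metestrus females, where F1 and F2 stand for a short and a long pause between the phases of the pain response, and proestrus and metestrus for stages of the estrus cycle. All 18 samples came from injected mice, no uninjected sample was analysed here, and behaviour and cycle stage cannot be told apart within the female groups. The design asked whether the DHSC transcriptome differed between males and all 12 females, and between the female groups. Whether the meninges were removed, or the blood washed out, is not stated for these samples.

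Neutrophils carry most of their weapons ready-made in granules, which are filled one kind after another while the cell matures in the bone marrow. Azurophil granules, packed first, hold the peroxidase encoded by *Mpo* and the elastase encoded by *Elane*. Specific granules hold lactoferrin (*Ltf*), the cathelicidin peptide (*Camp*), neutrophilic granule protein (*Ngp*) and the collagenase of *Mmp8*, and the late gelatinase granules hold the gelatinase of *Mmp9*. The products of *S100a8* and *S100a9* pair to form calprotectin, the main cytosolic protein of neutrophils and an alarm signal outside the cell, and *Retnlg* encodes a resistin-like peptide of myeloid cells. Transcription of azurophil and specific granule genes belongs to the marrow precursors, and transcripts of the calprotectin pair persist in circulating cells. Factors of the C/EBP family and PU.1 drive many of these genes during granulopoiesis.

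All 10 symbols matched a single protein-coding gene of GENCODE vM21 on GRCm38. *S100a8* and *S100a9* lie 22597 bp apart on chromosome 3 (chr3:90668978-90670035 and chr3:90692632-90695721), on opposite strands. *Camp*, *Ngp* and *Ltf* lie in 1 stretch of chromosome 9, at chr9:109847379-109849617, chr9:110419747-110423012 and chr9:111019271-111042767, with 570130 and 596259 bp between neighbours, and *Mmp8* (chr9:7558456-7568485) is far from them on the same chromosome. The other members are on chromosomes 11 (*Mpo*, chr11:87793581-87804413), 10 (*Elane*, chr10:79886247-79888215), 2 (*Mmp9*, chr2:164940780-164955850) and 16 (*Retnlg*, chr16:48872621-48874496). *Mpo* overlaps the antisense gene *Gm11505*. Whether the counting used the strand is not stated, so reads of these 2 genes cannot be told apart. The other 9 members overlapped no annotated gene.

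RefSeq promoters (GRCm38.p6) were found for 9 members, all but *Mmp9*, and 250 bases before each start were searched on both strands for a C/EBP motif, TTGCNNAA or its other strand TTNNGCAA, and a PU.1 motif, GAGGAAGT or its other strand ACTTCCTC. The 2 motifs do not overlap each other in letters. The C/EBP letters were found in *S100a9*, *Ngp* (2 matches), *Ltf*, *Mmp8* and *Retnlg*, and in 9.56% of all 32851 promoters searched. The PU.1 letters were found in *S100a8*, *Mpo*, *Elane* and *Mmp8*, and in 2.44% of all promoters. In *Camp* neither was found in this window. A match describes the sequence and is not shown to be a bound site. The stretches below, 5′ to 3′ and ending before the annotated gene, are shown for *S100a9*, the member with the highest level per length in males, for *Ngp* and *Ltf*, the pair whose levels were most alike across samples, for *Mmp8*, which held both motifs, and for *Elane*, the member with the fewest counts. Capitals mark the motif matches, and 1 of the 2 *Ngp* matches lies outside the stretch shown.
S100a9 chr3:90695722-90695971 (minus strand): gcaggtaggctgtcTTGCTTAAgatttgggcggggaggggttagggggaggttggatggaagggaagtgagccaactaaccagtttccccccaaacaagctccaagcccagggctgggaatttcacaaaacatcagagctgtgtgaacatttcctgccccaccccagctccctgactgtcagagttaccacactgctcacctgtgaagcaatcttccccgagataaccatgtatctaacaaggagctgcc
Ngp chr9:110419558-110419746 (plus strand): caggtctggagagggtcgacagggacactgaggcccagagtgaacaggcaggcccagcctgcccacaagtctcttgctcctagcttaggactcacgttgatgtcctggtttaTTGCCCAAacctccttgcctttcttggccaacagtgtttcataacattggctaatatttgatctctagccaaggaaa
Ltf chr9:111019042-111019270 (plus strand): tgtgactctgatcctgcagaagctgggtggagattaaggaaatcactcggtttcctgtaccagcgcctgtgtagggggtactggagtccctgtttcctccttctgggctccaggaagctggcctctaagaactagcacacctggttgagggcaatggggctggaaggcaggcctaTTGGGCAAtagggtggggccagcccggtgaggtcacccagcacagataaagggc
Mmp8 chr9:7558179-7558428 (plus strand): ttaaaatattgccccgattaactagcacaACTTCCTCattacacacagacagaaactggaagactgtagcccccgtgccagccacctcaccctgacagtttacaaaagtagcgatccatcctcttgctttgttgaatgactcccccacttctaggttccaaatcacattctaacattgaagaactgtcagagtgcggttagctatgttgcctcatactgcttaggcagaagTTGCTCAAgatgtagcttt
Elane chr10:79886062-79886246 (plus strand): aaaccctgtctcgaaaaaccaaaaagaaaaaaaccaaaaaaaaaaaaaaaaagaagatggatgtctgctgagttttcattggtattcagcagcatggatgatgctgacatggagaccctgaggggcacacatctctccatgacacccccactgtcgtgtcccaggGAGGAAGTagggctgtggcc

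Each sample had between 73590509 and 125724156 counts. At this depth 3 counts, taken as the floor of detection, amounted to 0.024 to 0.0407 CPM, the counts scaled to a common library total and the unit used below for levels. The shallowest and the deepest library were both of males. The sample F1/proestrus 5 stood apart, with a summed level of 6 sensory ganglion neuron markers of 410 CPM against 1.25 to 2.63 in the other 17 samples, and results that rest on it are given with and without it. The sample labels do not state that each sample is 1 animal, and p-values measure the spread between these samples.

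The counts behind the members were few for all but *Mmp9*, which had 913 to 1908 in every sample. *Ngp*, with the next most, had 35 to 980. *Elane* was the only member at or under 3 counts in any sample, with 0 counts in F1/proestrus 1 and 4 and 3 counts in F2/metestrus 5, and *Mmp8* fell to 4 counts in F1/proestrus 4. Divided by exon length, the mean level in males was 6.84 ± 3.94 (SD, n = 6) CPM per kilobase for *S100a9*, 3.87 ± 0.886 for *Mmp9*, 3.29 ± 2.18 for *S100a8*, 2.97 ± 1.95 for *Ngp* and 1.52 ± 1.01 for *Camp*. *Retnlg* (1.28), *Ltf* (0.728), *Elane* (0.331), *Mmp8* (0.266) and *Mpo* (0.252) followed on the same scale. Neighbours in this order differed by less than the larger of their SDs. In both female groups *Mmp9* came first, at 4.16 ± 0.676 in F1/proestrus and 4.53 ± 0.43 in F2/metestrus, and *S100a9* second, at 2.09 ± 1.39 and 3.1 ± 1.1 CPM per kilobase (SD, n = 6 each). *Mpo* and *Elane*, the azurophil members, took the 2 lowest places in both female groups.

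**Figure D1:**
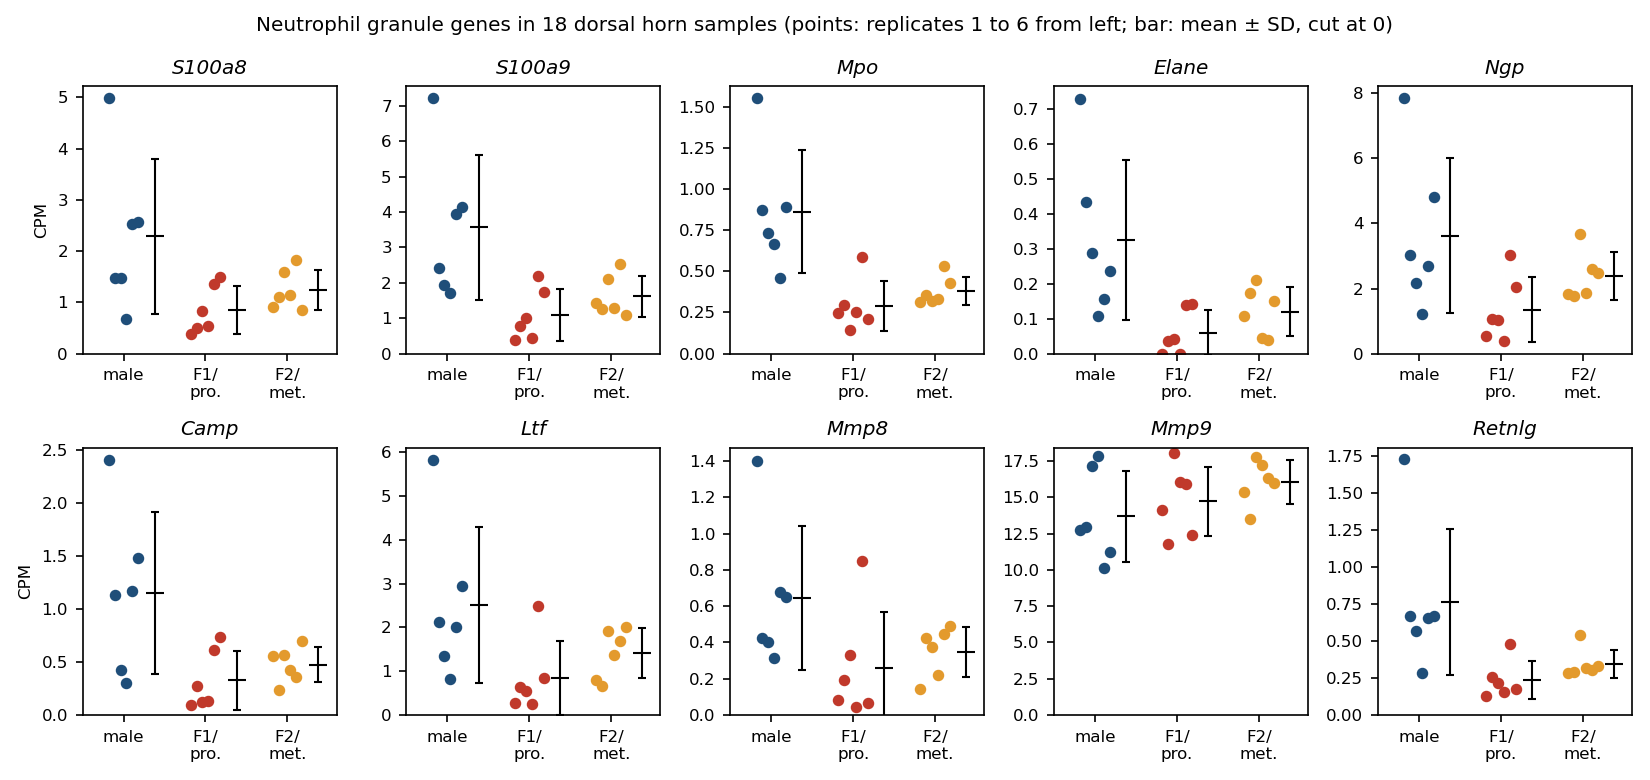
Level of each of the 10 members in CPM (vertical axis from 0, a scale per gene) in the 18 samples, by group (pro., proestrus and met., metestrus). Points are samples, in replicate order from left to right, and bars give the mean ± SD of 6 samples, cut off at 0. Male 1 is the highest point for 9 members, and the groups of *Mmp9* lie over each other between 10.2 and 18 CPM.

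In males the 9 members other than *Mmp9* were higher on average than in females, with a wide spread between the male samples, and *Mmp9* was level. The list was put together with the result of this contrast known, and the study itself names *Mpo* and *Retnlg* from it, so the following values describe the members and are no independent evidence of a difference. *S100a9*, the larger partner of calprotectin in these data, ran from 1.72 to 7.22 CPM in males (median 3.18), from 0.391 to 2.19 in F1/proestrus (median 0.895) and from 1.09 to 2.54 in F2/metestrus (median 1.36). Of the 6 males, 3 lay above the highest female, and no female reached the male median. Its fitted log2 fold change, males over females, was 1.40 with a standard error of 0.335 (edgeR quasi-likelihood test, adjusted p = 0.116).

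*S100a8*, its partner, ran from 0.665 to 4.99 CPM in males (median 2.01), from 0.382 to 1.49 in F1/proestrus (median 0.681) and from 0.847 to 1.83 in F2/metestrus (median 1.12). It showed the same overlap, with 3 males above all females, and a log2 fold change of 1.15 (SE 0.331, edgeR adjusted p = 0.244). The ratio of *S100a8* to *S100a9* CPM was 0.386 to 0.759 in males (median 0.632), 0.616 to 1.2 in F1/proestrus (median 0.845) and 0.623 to 0.889 in F2/metestrus (median 0.77). The lowest ratio was that of male 4 and the highest that of F1/proestrus 4.

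*Mpo*, the azurophil peroxidase, was the member with the clearest separation. It ran from 0.456 to 1.55 CPM in males (median 0.8), from 0.144 to 0.587 in F1/proestrus (median 0.249) and from 0.312 to 0.533 in F2/metestrus (median 0.343). The lowest male lay below the highest female and the other 5 males above it. Its log2 fold change was 1.37 (SE 0.25), and it was the 1 member of 10 called at an FDR of 5% (edgeR adjusted p = 0.0161), against 0.197% of the 24862 genes tested. The call was lost without male 1, where the log2 fold change was 1.10 and the adjusted p 0.056. *Elane*, which encodes the elastase of the same granules, ran from 0.109 to 0.729 CPM in males (median 0.262), from 0 to 0.142 in F1/proestrus (median 0.0384) and from 0.0381 to 0.209 in F2/metestrus (median 0.128). Of the 6 males, 4 lay above the highest female. Its log2 fold change of 1.86 was the largest of the 10 but rests on 8 to 91 counts in males and 0 to 19 in females (SE 0.514, edgeR adjusted p = 0.21).

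Among the specific granule genes, *Ngp* had the highest counts and *Camp* the largest fold change. *Ngp*, a protein of the cystatin-like fold, ran from 1.21 to 7.85 CPM in males (median 2.86), from 0.385 to 3.02 in F1/proestrus (median 1.05) and from 1.76 to 3.69 in F2/metestrus (median 2.17), with 2 males above all females. *Camp*, the precursor of an antimicrobial peptide, ran from 0.298 to 2.4 CPM in males (median 1.15), from 0.091 to 0.732 in F1/proestrus (median 0.204) and from 0.24 to 0.697 in F2/metestrus (median 0.495), with 4 males above all females. The lowest male lay below the median of its F2/metestrus values.
*Ltf*, the iron-binding lactoferrin, ran from 0.827 to 5.82 CPM in males (median 2.07), from 0.253 to 2.49 in F1/proestrus (median 0.603) and from 0.663 to 2.01 in F2/metestrus (median 1.53), with 2 males above all females. *Mmp8*, a collagen-cutting protease, ran from 0.312 to 1.4 CPM in males (median 0.537), from 0.044 to 0.849 in F1/proestrus (median 0.139) and from 0.142 to 0.488 in F2/metestrus (median 0.399). Only male 1 exceeded the highest female in *Mmp8*, which was F1/proestrus 5. The log2 fold changes were 0.97 for *Ngp* (SE 0.38), 1.53 for *Camp* (SE 0.407), 1.17 for *Ltf* (SE 0.422) and 1.09 for *Mmp8* (SE 0.442), and none of the 4 passed the test (edgeR adjusted p between 0.178 and 0.429).

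*Retnlg*, the resistin-like peptide, ran from 0.285 to 1.72 CPM in males (median 0.661), from 0.127 to 0.482 in F1/proestrus (median 0.195) and from 0.285 to 0.54 in F2/metestrus (median 0.312). As for *Mpo*, 5 of 6 males lay above the highest female. Its log2 fold change was 1.40 (SE 0.302, edgeR adjusted p = 0.0581), just outside the threshold. DESeq2, the tool named in the study's methods, called it (adjusted p = 0.00573) together with *Mpo* among 158 genes, 0.596% of those tested. *Mmp9*, the gelatinase, ran from 10.2 to 17.8 CPM in males (median 12.9), from 11.8 to 18 in F1/proestrus (median 15) and from 13.5 to 17.8 in F2/metestrus (median 16.2). Its groups overlapped throughout, and its log2 fold change was -0.17 (SE 0.113, edgeR adjusted p = 0.632).

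The 9 members with a log2 fold change above 0 make 9 of 10, against 49.6% of all genes tested, and their unadjusted p was under 0.05 in 9 of 10, against 9.72%. In 0 of 10 members did the CPM of the sexes not overlap with males higher, against 0.0724% of all genes. The median log2 fold change of the 10 was 1.27, beside -0.001 over all genes. Against F1/proestrus alone the median was 1.56 and against F2/metestrus alone 1.02, with 0 members called in either, against 0.0535% and 0.0915% of genes. Male 1 alone carried part of these values, as it was the highest of 18 samples for all 9 members, between 3.6 and 5.53 times the median sample. Without it the median fell to 0.86 and 0 members were called, against 0.259% of genes, although 9 of 10 stayed above 0.

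**Figure D2:**
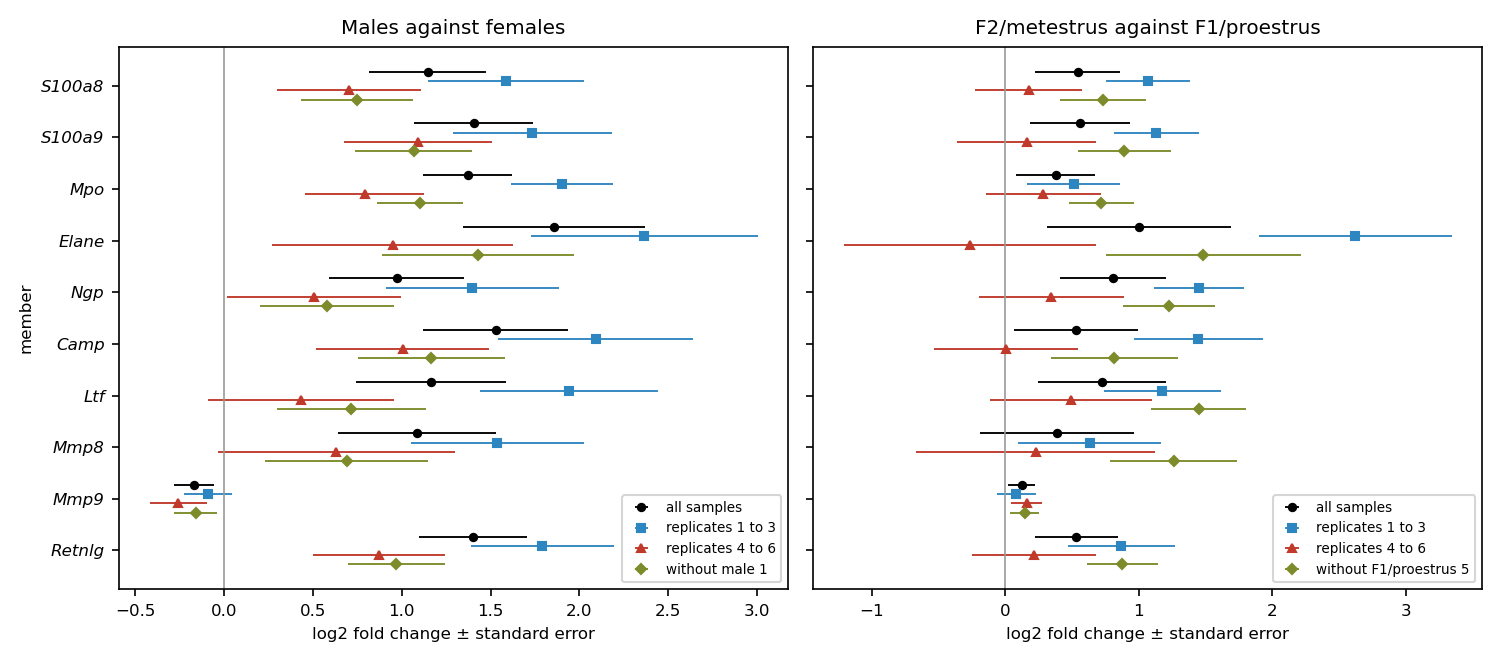
Fitted log2 fold change of each member (points) with its standard error (bars) for males against females (left) and F2/metestrus against F1/proestrus (right), in all samples, in replicates 1 to 3, in replicates 4 to 6, and without 1 sample. In the left panel every point of the 9 members other than *Mmp9* lies above 0, and in the right panel only *Elane* in replicates 4 to 6 lies below 0.

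Library numbers, as the count table's header gives them, fall into a lower and a higher series, replicates 1 to 3 and replicates 4 to 6 of each group, and the sex values were computed within each. In replicates 1 to 3 the median log2 fold change of the 10 members was 1.76, with *Mpo* called, against 0.0629% of genes. In replicates 4 to 6 it was 0.75, with 0 members called, against 0.0531% of genes, and 3 with an unadjusted p under 0.05. The share of all genes under 0.05 was not computed within a series, so the 3 cannot be set against it. *Mpo* had a log2 fold change of 1.90 in the former and 0.79 in the latter, and *Ltf* 1.94 and 0.43. In both series 9 of 10 members were above 0. Averaged over the groups, the levels of the 2 series were close for all but *Elane*, at 0.224 ± 0.234 and 0.113 ± 0.0733 CPM, and *Retnlg*, at 0.52 ± 0.487 and 0.374 ± 0.188 CPM (SD, n = 9 each).

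Between the female groups every member had the higher fitted level in F2/metestrus, by an amount that no test separated from the spread at an FDR of 5%. The log2 fold changes, F2/metestrus over F1/proestrus, ran from 0.12 (*Mmp9*, SE 0.102) to 1.0 (*Elane*, SE 0.687), with 0.81 for *Ngp* (SE 0.395), 0.73 for *Ltf* (SE 0.479) and 0.56 for *S100a9* (SE 0.375). The count above 0 was 10 of 10, against 49.8% of all genes, and members that move together across samples are not separate votes. By edgeR 0 of 10 members were called, as were 0 of 24042 genes (0%), with adjusted p = 1 for each member. At an unadjusted p under 0.05 there were 0 members and 596 genes (2.48%), and DESeq2 called 0 members and 2 genes (0.00453%). *Ngp* had the smallest unadjusted p of the 10, 0.0593 in the edgeR test. The F2/metestrus samples were the more even group. All 6 lay above the F1/proestrus median for 8 members and 5 of 6 for *Elane* and *Mmp9*. The sum of the 9 members other than *Mmp9* ran from 6.26 to 11.3 CPM in F2/metestrus and from 2.13 to 11.7 in F1/proestrus, against 6.09 to 33.7 in males. The 2 lowest sums of all samples, 2.13 and 2.19 CPM, were in F1/proestrus 1 and 4.

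F1/proestrus 5, the sample with the sensory ganglion markers, was the highest of its group for 6 of the 9 members other than *Mmp9*. Without it the median log2 fold change of the 10 members rose from 0.54 to 0.88, and 7 had an unadjusted p under 0.05, but the adjusted p stayed at 1 for each and 0 genes were called by edgeR. The share of all genes under 0.05 was not computed for this fit, so the 7 cannot be set against it. Replicates 1 to 3 gave a median of 1.10 and replicates 4 to 6, which include that sample, 0.19, where *Elane* turned to -0.27. The comparisons of males with females and of the female groups share the 12 female samples, so their values for a member are not independent.

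The members were next compared with each other across samples. Over all 18 samples this relation holds the difference between the sexes, which was known when the genes were chosen, so r over 18 samples is a description and the values with group means removed are the test. *Elane* was left out for its counts at the floor, which left 36 pairs of 9 members over 18 samples, all of them sharing the library of each sample. In the 28 pairs without *Mmp9* the levels rose and fell together. Pearson's r of log2 CPM was 0.632 (*Camp* and *Mmp8*) to 0.962 (*Ngp* and *Ltf*) with a median of 0.848, and Spearman's rho was 0.591 to 0.961. In a two-sided permutation test adjusted over the 36 pairs, the adjusted p of the 28 lay between 2.77e-05, the smallest the resamples could give here, and 0.0062 for r, and reached 0.0148 for rho. *S100a8* and *S100a9* had an r of 0.946 and a rho of 0.928. *Mpo* followed the others least closely among these 8, with r from 0.656 (*S100a8*) to 0.837 (*Retnlg*).

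With the 3 group means removed, the r of the 28 pairs was 0.369 to 0.942 with a median of 0.749, and 20 passed (permutation within groups, adjusted p 0.00012 to 0.261). Of the 8 that did not pass, 6 were with *Mpo*, whose 7 pairs had r from 0.369 to 0.63. The share of all gene pairs that would pass was not computed, so the 20 cannot be set against it. Male 1 was kept in this setting. The relation was also computed within groups and without single samples, with the group means left in. In these settings, all but the one within males still hold differences between groups, so their values are a description. Without the 2 samples farthest from the median on the x axis r stayed at 0.436 to 0.937. It was 0.518 to 0.992 within the 6 males and 0.37 to 0.95 within the 12 females. In replicates 1 to 3 it was 0.716 to 0.991 with all 28 pairs passing, and in replicates 4 to 6 it was 0.362 to 0.962 with 20 passing. Without male 1, 27 passed, and without F1/proestrus 5, 28 did. *Mmp9* did not rise with the others. Over 18 samples its 8 pairs had r from -0.484 to -0.144, none of which passed (smallest adjusted p = 0.0529, permutation test), and rho from -0.509 to -0.181, of which the one with *Camp* passed (adjusted p = 0.0408). With group means removed r was -0.494 to -0.018 and none passed. In replicates 4 to 6, with group means left in, the pairs with *S100a8* (r = -0.753, adjusted p = 0.039) and *Camp* (r = -0.757, adjusted p = 0.0349) passed the exact permutation test. Within males r was -0.804 to 0.052, with a median of -0.616, and within females -0.005 to 0.395.

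**Figure D3:**
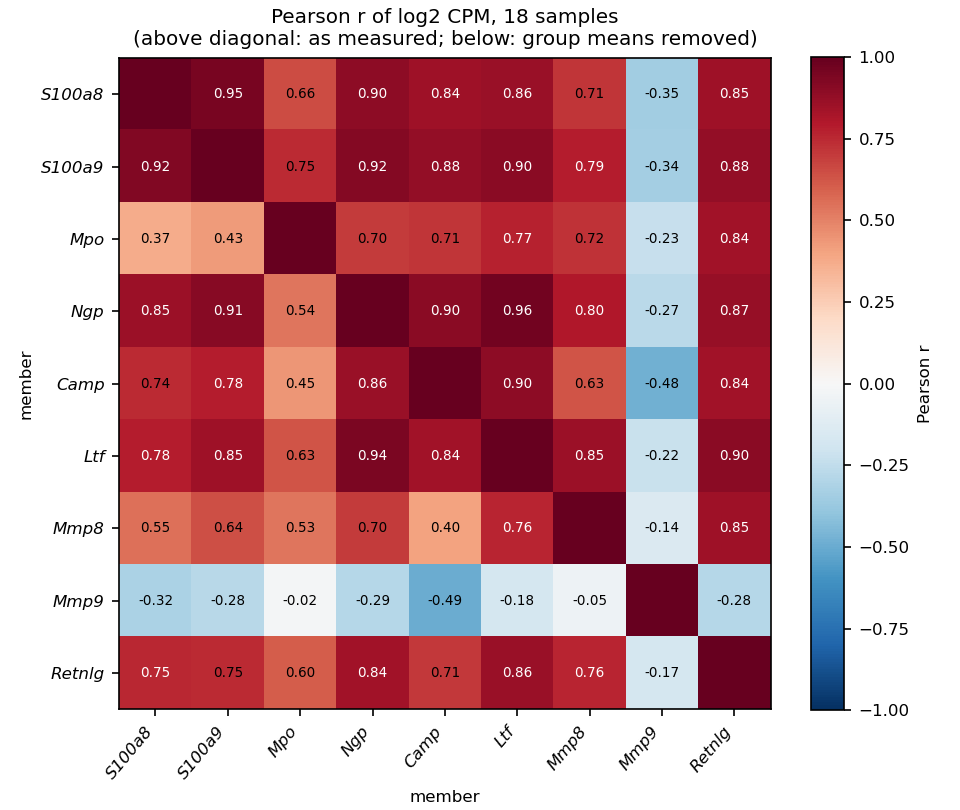
Pearson's r between the log2 CPM of 9 members over 18 samples (colour and number), as measured above the diagonal and with the 3 group means removed below it. The row and column of *Mmp9* are negative, and all other pairs are positive.

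**Figure D4:**
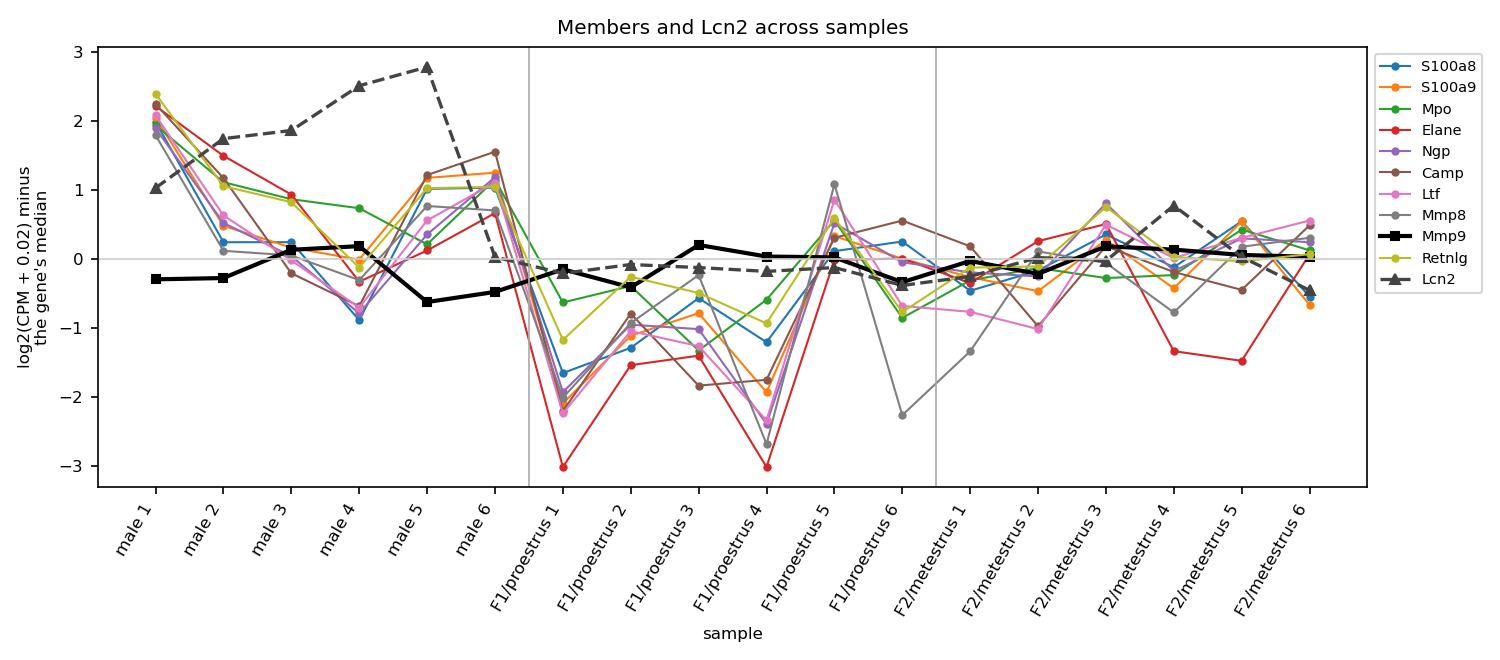
Level of the 10 members and of *Lcn2* in each sample, as log2(CPM + 0.02) minus the gene's own median over 18 samples (vertical axis), with vertical lines between the groups. The 9 members other than *Mmp9* peak together in male 1 and drop together in F1/proestrus 1 and 4, *Mmp9* varies least, and *Lcn2* peaks in males 4 and 5.

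The samples fell in much the same order for the 9 members other than *Mmp9*. Male 1 ranked first of 18 for all 9, male 6 between ranks 2 and 4, and F1/proestrus 1 and 4 between ranks 15 and 18. The share of *Mmp9* in the summed CPM of the 10 members ran from 27.5% in male 1 to 88% in F1/proestrus 4. As *Mmp9* itself varied little, its share falls where the sum of the others rises, and is no separate observation. Male 4 had the lowest sum among the males, 6.09 CPM, within the range of F1/proestrus and just under that of F2/metestrus. The share of *Mpo* in the sum of 9 was 10.9% there, against 3.19% to 7.81% in the other males. In bulk tissue fewer cells of a kind and less RNA per cell cannot be told apart.

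Genes with the pattern most like a member were ranked by Pearson's r of log2 CPM over the 18 samples with group means removed, among 24852 genes outside the list, as a description. For *S100a9* they were *1700019D03Rik* (0.853), *Chil3* (0.813), *Gm15782* (0.804), *Omp* (0.781) and *Cd79b* (0.76), where *Chil3* encodes a chitinase-like protein of neutrophils and monocytes, and *Cd79b* a part of the B cell receptor. When members were ranked too, *S100a8* was at rank 1 (0.923), *Ngp* at rank 2 (0.913) and *Ltf* at rank 4 (0.849), whereas *Mpo* was at rank 1002 and *Mmp9* at 21551. For *Mpo* the closest genes were *Pde12* (0.845), *Gm11505* (0.83), *Mmp25* (0.804), *Stau1* (0.79) and *Cd22* (0.775), of which *Gm11505* is the antisense gene that overlaps *Mpo* and *Mmp25* encodes a membrane protease of neutrophils. For *Mmp9*, added after its values were seen, they were *Nefh* (0.897), *E2f1* (0.896), *Kcng4* (0.88), *Grin3b* (0.879) and *Nefm* (0.876). *Nefh* and *Nefm* encode neurofilament subunits of large axons and *Kcng4* a potassium channel subunit, and *Mmp9* is itself known to be expressed by fast motor neurons. Without F1/proestrus 5, the sample with sensory ganglion markers, *Mmp25* moved from place 3 to 43 for *Mpo* (r = 0.668) and *Stau1* from 4 to 35 (0.682), whereas *Pde12* (0.869) and *Gm11505* (0.824) kept the first places. For *S100a9* the first gene remained *1700019D03Rik* (0.872), and *Chil3* moved to place 6 (0.771) and *Cd79b* to 19 (0.724). For *Mmp9* the 5 genes kept an r of 0.876 to 0.913. The highest r of *Mmp9* with any other member was -0.018 on this scale (*Mpo*).

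Other genes of the neutrophil were read from lists written with earlier results known. Among the 11 other specific granule genes, 10 were tested and 1 was called in the sex comparison, *Lcn2*, which encodes the lipocalin of these granules and is also made by reactive glia. The study picked it from these samples and followed it in further experiments by RT-qPCR, immunostaining and flow cytometry. There, at the protein level, most LCN2-positive leukocytes of the male pia mater carried the neutrophil marker Ly6G. Their share rose after formalin in the pia mater of males and not in females. *Lcn2* stood at 5.24, 8.61, 9.35, 14.7, 17.7 and 2.61 CPM in males 1 to 6 and between 1.86 and 4.39 in the females, a log2 fold change of 1.97 (SE 0.255, edgeR adjusted p = 0.0003). The males ranked differently in *Lcn2* and in the members. Male 6, second in most members, was the lowest male in *Lcn2* and lay within the range of the females, and males 4 and 5 were the highest. Over 18 samples *Lcn2* and *S100a9* had r = 0.446 and rho = 0.583, neither of which passed the permutation test (adjusted p = 0.193 and 0.063 over 15 relations computed). Within the 6 males r was -0.494, without the 2 farthest samples 0.421, with group means removed -0.269, and within replicates 1 to 3 and 4 to 6 it was 0.588 and 0.352.

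**Figure D5:**
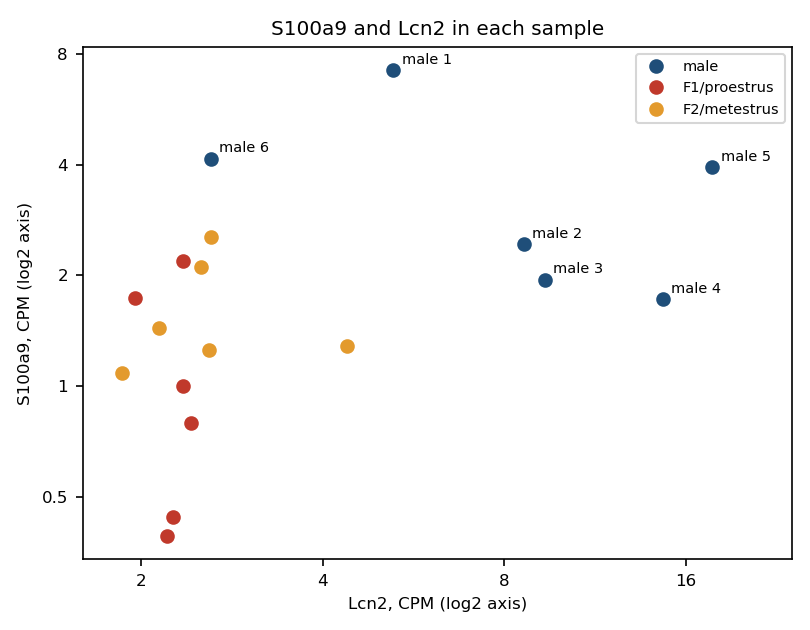
*S100a9* against *Lcn2* in CPM (log2 axes) in the 18 samples, coloured by group, with the males named. Male 1 is highest in *S100a9* at 7.22 CPM and male 5 in *Lcn2* at 17.7 CPM, and male 6 lies among the females in *Lcn2*.

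*Chil3*, listed with both specific granule and monocyte genes, had means of 1.34, 0.383 and 0.738 CPM in males, F1/proestrus and F2/metestrus, with a log2 fold change between the sexes of 1.27 (SE 0.393, edgeR adjusted p = 0.292). None of the tested genes of the remaining lists was called in either fit. These lists mix abundant genes that many cells of the cord express with genes at the floor, and 4 of 21 mature neutrophil genes and 4 of 13 neutrophil-recruiting genes had more than 3 counts in every sample. The lists held 6 tested azurophil genes (median log2 fold change between the sexes 0.14), 8 of gelatinase and secretory granules (0.05), 7 of mature neutrophils (0.08), 5 transcription factors of granulopoiesis (0.09), 11 receptors and inhibitors of granule proteins (0.02) and 7 neutrophil-recruiting genes (-0.18), where that of the 10 specific granule genes was 0.33 and that of all genes -0.001. Their most abundant genes, by mean CPM, were *Cd63* (52.7) and *Serpinb1a* (48.6), *Chil1* (42.2) and *Pglyrp1* (8.97), *Cr1l* (19.9) and *Itgam* (19.4), *Csf3r* (3.96) and *Hdc* (2.18), *Cebpb* (17.8) and *Cebpd* (11.3), *Timp2* (864) and *Lrp1* (244), and *Cxcl12* (41.5) and *Vcam1* (36.9). Between the female groups the medians of these 7 lists ran from -0.06 (neutrophil-recruiting) to 0.17 (mature neutrophil).

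Single genes of these lists, picked after their values were seen, stood at both ends. Counted in every sample were *Csf3r*, the receptor of a granulocyte growth factor (272 to 586 counts), *Hdc* (110 to 324) and *Il1r2* (45 to 102) of the mature neutrophil list, and *Prtn3* (83 to 229) and *Prss57* (146 to 388), proteases of azurophil granules. Others were at or near the floor. *Ly6g*, the surface marker used to gate mouse neutrophils, had 0 to 26 counts and a mean of 0.0422 CPM, and the chemokine receptor *Cxcr2* 0 to 23 counts and 0.042 CPM. Neither passed the filter on low counts. The mean of *Ly6g* was 0.0673 CPM in males, 0.0298 in F1/proestrus and 0.0295 in F2/metestrus, and that of *Cxcr2* was 0.0749, 0.0232 and 0.028. *Padi4* of the mature neutrophil list went the other way, at 0.0975 CPM in males, 0.133 in F1/proestrus and 0.126 in F2/metestrus. Of the 7 tested genes of that list, 6 had a log2 fold change between the sexes above 0. *Cxcr1*, *Stfa1*, *Stfa2*, *Stfa2l1*, *Stfa3* and *BC100530* had at most 3 counts in all 18 samples. *Cebpe* and *Gfi1*, regulators needed for granule gene transcription in precursors, reached at most 8 and 4 counts, and *Ctsg*, a protease of azurophil granules, 13. The chemokines *Cxcl1* and *Cxcl2*, which draw neutrophils, reached 12 and 5 counts, and the growth factor *Csf3* 4. What cells the granule transcripts came from was not tested.

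Markers of other cells were set beside the members. Summed over 7 red blood cell markers, levels were 51.3 to 371 CPM in males, 135 to 200 in F1/proestrus and 122 to 266 in F2/metestrus, with 0 of 7 called, and r with *S100a9* was -0.419 (adjusted p = 0.208, permutation test) and rho -0.294. The 8 microglia markers ran from 361 to 391 CPM in males, 323 to 368 in F1/proestrus and 339 to 373 in F2/metestrus, with 0 of 8 called. Their sum had r = 0.664 with *S100a9* (adjusted p = 0.0385) and rho = 0.587 (adjusted p = 0.063, permutation test), 0.48 without the 2 farthest samples, 0.703 and 0.688 in the lower and higher series, -0.369 within males and 0.26 with group means removed. *Csf1r* of this list, which the study names among its male-enriched genes, had a log2 fold change of 0.20 (SE 0.0424, edgeR adjusted p = 0.0548). The 6 Schwann cell markers ran from 1850 to 4520 CPM in males, 1250 to 2600 in F1/proestrus and 1290 to 1890 in F2/metestrus, with *Ncmap* called higher in males (log2 fold change 0.67, SE 0.111, edgeR adjusted p = 0.00654). Their sum had r = 0.581 with *S100a9* (adjusted p = 0.0915) and rho = 0.709 (adjusted p = 0.0234, permutation test), 0.459 without the 2 farthest samples, 0.507 and 0.684 in the 2 series, 0.074 within males and 0.277 with group means removed. Over 18 samples r and rho hold the difference between the sexes, so these values are a description. The part of these cells in the member levels was not tested.

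In the permutation test over 18 samples, which hold the difference between the sexes, no other marker list showed a relation to *S100a9* that passed. With group means removed, r of the marker sums with *S100a9* ran from -0.305 (red blood cells) to 0.732 (eosinophils, basophils and mast cells). For the 8 lymphocyte markers it was 0.534, with 0.254 within males and 0.72 within females. These further values were not tested. The 6 monocyte markers summed to 11.5 to 16.8 CPM in males, 7.25 to 16.5 in F1/proestrus and 7.5 to 12.8 in F2/metestrus, the 6 border macrophage markers to 24.5 to 37.7, 16.5 to 38.3 and 18.4 to 26.8, and the 7 meningeal fibroblast markers to 282 to 476, 225 to 494 and 261 to 417. All 3 had overlapping groups and 0 genes called. The 8 lymphocyte markers stayed at 0.519 to 1.12 CPM in all, and the 5 markers of B cell precursors of the marrow at 0.622 to 1.09. The 9 dorsal horn neuron markers, which check the tissue, summed to 772 to 889 CPM in the 18 samples. The 6 sensory ganglion markers, apart from F1/proestrus 5, did not exceed 2.63 CPM. By mean CPM over the 18 samples the most abundant genes of the blood and immune lists were *Hbb-bs* (58.9) and *Hba-a1* (47.4) for red blood cells, *Gp1bb* (22.5) and *Itga2b* (2.87) for platelets, *Cd79b* (0.297) and *Cd3e* (0.195) for lymphocytes, *Vpreb1* (0.364) and *Rag1* (0.155) for B cell precursors, *F13a1* (9.97) and *Chil3* (0.82) for monocytes, *F13a1* and *Cd163* (5.54) for border macrophages, *Epx* (1.26) and *Prg2* (0.306) for eosinophils, basophils and mast cells, and *Csf1r* (135) for microglia. Those of the other lists were *Col1a2* (126) and *Dcn* (126) for meningeal fibroblasts, *Pmp22* (1020) for Schwann cells, *Avil* (7.86) and *Scn10a* (7.0) for sensory ganglion neurons, *Slc17a6* (258) and *Gad1* (242) for dorsal horn neurons, *Gfap* (1620) and *Aqp4* (557) for astrocytes, and *Flt1* (47.5) and *Ly6c1* (43.7) for endothelial cells. None of these was called in either fit. The means of *Avil* and *Scn10a* rest on F1/proestrus 5. Their means were 0.455 and 0.036 CPM in males and 0.517 and 0.0404 in F2/metestrus.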

How the data were processed

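RNA of 18 ipsilateral DHSC samples was sequenced, and the authors deposited raw counts per gene, without normalization, which the paper's methods describe as uniquely mapped reads (Subread, mm10) summed over exons by featureCounts. The submitters' processing notes name Subread 2.0.3, featureCounts, DESeq2 1.3.0 and bcl2fastq 2.20.0.422. The methods name a TruSeq kit, whereas the labels describe SMART-Seq amplification and tagmentation, and the strand setting is not given in the sources used here. The authors also deposited a DESeq2 table whose fold changes, p-values and means were not used, and only its pairing of IDs with symbols was read.

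Counts were filtered with filterByExpr (minimum count 10, minimum total 15), normalized with TMM, and tested with the edgeR 4.0.16 quasi-likelihood test in R 4.3.3, with Benjamini-Hochberg adjustment over all genes at an FDR of 5%. Males were compared with all 12 females in a fit of 18 samples, and F2/metestrus with F1/proestrus in a fit of 12. CPM are counts over the TMM-adjusted library total. Levels per length used the merged exons of GENCODE vM21, which held 55394 of the 55573 IDs. Correlations used log2 CPM (prior count 2) and 100000 resamples, with scipy 1.17.1. The fit was tested on simulated data with a known set of changed genes. Alternatives were DESeq2 1.42.0, scaling by size factors, testing without a filter or with 10 counts in every sample, the replicate number as a block, the library series as a covariate or alone, 3 groups in 1 fit, each female group alone, and leaving out each sample.

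The members and lists were chosen with earlier results of these data known. Named are all members, *Lcn2*, every listed gene called, the 2 most abundant genes of each list (some are not reported here), and the 5 genes most like *S100a9* and *Mpo*. *Chil3*, *Ly6g*, *Cxcr2*, *Cebpe*, *Gfi1*, *Ctsg*, *Il1r2*, *Prtn3*, *Prss57*, *Cxcl1*, *Cxcl2*, *Csf3*, the genes at the floor and the genes like *Mmp9* were named after their values were seen, as were the relations with *S100a9*, and the ranking without F1/proestrus 5 was added then. *Padi4*, *Olfm4* and *Cybb*, listed genes lower in males, were named then too. The counts of PCR-amplified reads cover counting error only.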

Additional observations from a re-analysis of the deposited data

Results flagged for a closer look

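Among 33 combinations of a gene (10 members and *Lcn2*) and a group of 6, 8 held a highest sample whose gap to the next exceeded Dixon's 95% critical value. Chance flags about 1 in 20 such groups if the values are normally distributed, which untransformed CPM need not be. Because the members move together the 8 are not separate events. F1/proestrus 5 was far above the rest of its group in *Mpo* (0.587 CPM, next 0.294), *Ltf* (2.49, next 0.842), *Mmp8* (0.849, next 0.329) and *Retnlg* (0.482, next 0.258). This is the sample with sensory ganglion markers at 410 CPM, and their part in the member levels was not tested. Male 1 was far above the other males in *Mmp8* (1.4 CPM, next 0.679) and *Retnlg* (1.72, next 0.67). F2/metestrus 3 stood out in *Retnlg* (0.54 CPM, next 0.329), and F2/metestrus 4 in *Lcn2* (4.39 CPM, next 2.61), where no member stood apart.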

How the results depend on the processing

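The number of members called between the sexes, 1 by edgeR, was 2 with DESeq2 and with the library series as a covariate (*Mpo* and *Retnlg*), and 0 in replicates 4 to 6 alone and against either female group alone. Leaving out 1 sample gave 0 to 2, with 0 without male 1 (*Mpo*, adjusted p = 0.056) and 2, *Mpo* and *Retnlg*, without male 4, F1/proestrus 5 or F2/metestrus 3. Over 29 alternatives *Mpo* was called in 25 and *Retnlg* in 5, with edgeR or DESeq2 adjusted p of 0.00023 to 0.403 and 0.00573 to 0.406. The 49 genes called became 158 with DESeq2, 31 with 10 counts in every sample, 134 with the series as a covariate, 16 in replicates 1 to 3, 13 in replicates 4 to 6, 13 against F1/proestrus alone, 22 against F2/metestrus alone, and 25 to 77 on leaving out 1 sample (30 without male 4, 25 without male 5, 77 without F1/proestrus 5). Whether shared replicate numbers pair the samples is not known. Of 18 same-number pairs, 9 correlated above 0.1 (range -0.105 to 0.228), and 7 of 18 samples correlated best with their own number. No chance level was computed for these counts. The replicate block gave 148 genes and 1 member, *Mpo*, between the sexes and 0 genes between the female groups. Between the female groups 0 members were called under every alternative run, DESeq2 called 2 genes, and *Elane* reversed to -0.27 in replicates 4 to 6. By edgeR, 4 members had an unadjusted p under 0.05 with the replicate block, 6 in replicates 1 to 3 and 0 in replicates 4 to 6. The share of all genes under 0.05 was not computed for these fits. The cause of these changes was not tested. The 28 correlated pairs became 20 to 28 under 6 alternatives, 2 of them (without male 1 and without F1/proestrus 5) chosen after seeing the data. Of these alternatives, only the one with group means removed (20 pairs) leaves out the differences between groups. *Elane* and *Mmp8* could not be fitted with 10 counts required in every sample. *Elane* had 0 to 4 counts in 6 females, and differences among these are within counting error.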

Other observations

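*Chil3*, a chitinase-like protein of neutrophils and monocytes, and *Cd177*, a surface protein of neutrophils, were chosen after their values were seen. Of the 10 tested genes of the other specific granule list, 8 had a log2 fold change between the sexes above 0 (median 0.33). *Olfm4* (-0.34) and *Cybb* (-0.06) of that list lay below 0. *Chil3* had 10 to 426 counts and *Cd177* 0 to 173, with log2 fold changes between the sexes of 1.27 (SE 0.393) and 1.59 (SE 0.499), neither called (edgeR adjusted p = 0.292 and 0.301). Between the female groups they were 0.94 and 0.60 higher in F2/metestrus on the log2 scale, with adjusted p = 1 for both in the edgeR test. *Ms4a3*, a marker of granulocyte and monocyte precursors, had 0 to 195 counts and *Mmp25* 1 to 358, with the highest in F1/proestrus 5, the sample with sensory ganglion markers. Mean *Ms4a3* was 0.0551 CPM in males and 0.0186 in F2/metestrus, and in F1/proestrus 0.292 with that sample and 0.0091 without it. Mean *Mmp25* was 0.155 CPM in males and 0.185 in F2/metestrus, and in F1/proestrus 0.649 with that sample and 0.151 without it. *Runx1* likewise stood at 9.05 CPM in F1/proestrus 5 and at a mean of 0.941 in the other 5 samples of that group. The summed eosinophil, basophil and mast cell markers had r = 0.534 with *S100a9* over 18 samples and rho = 0.515 (adjusted p = 0.115 and 0.0945, permutation test), with 0.411 without the 2 farthest samples. With group means removed r was 0.732, within males 0.894 and within females 0.618. In replicates 1 to 3 and 4 to 6 it was 0.811 and 0.27. These further values were not tested, and only 1 of the 6 markers had more than 3 counts in every sample.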
